A study of Homo sapiens with 45 samples.

Results

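The early response to palbociclib (PB), an inhibitor of CDK4 and CDK6, was compared between IMR-32 and SK-N-BE(2)C, established lines of human neuroblastoma. For each gene the quantity of interest was the change after 24 h of PB in SK-N-BE(2)C minus the change after 24 h of PB in IMR-32. The comparison used 20 of the 45 RNA-seq libraries of the series: 5 untreated control cultures and 5 cultures given 1 µM PB for 24 h in each line. The other 25 libraries came from another line, SH-SY5Y, and from longer treatments, and are used below as a side view.

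Both lines carry amplified MYCN and loss of 1p, and both are of the adrenergic (ADRN) type. IMR-32 also has amplified MEIS1. A line is 1 genetic background, so a difference between these lines is a difference between 2 cultures and cannot be assigned to one of these lesions. Replicates were cultures of different passages. The amplified genes were checked first: the mean level of MYCN in controls was 3752 CPM (counts per 1000000 counts of a library) in SK-N-BE(2)C cells and 1637 CPM in IMR-32 cells, and that of MEIS1 was 22.4 and 330.3 CPM. The adrenergic markers PHOX2A, HAND2 and GATA3 were present in every library, with a lowest value of 189 CPM. The Schwann cell marker SOX10 and the mesenchymal marker PRRX1 were not listed in the counts. The summed level of the mesenchymal markers overlapped between controls and PB in both lines (933 to 1217 against 901 to 1198 CPM in SK-N-BE(2)C cells, and 866 to 1465 against 788 to 1205 CPM in IMR-32). VIM, at a mean of 548 CPM in SK-N-BE(2)C controls, weighed heavily in that sum, and single markers moved. By the limits used below, of 15 markers tested, 1 rose and 4 fell in SK-N-BE(2)C (backgrounds 10.5% and 8.82%). In IMR-32, 2 fell (background 11.2%). The summed Schwann cell markers were 14.9 to 20.5 CPM in SK-N-BE(2)C controls and 21.4 to 26.4 CPM after PB, and at most 3.80 CPM in any IMR-32 library; their part in the results was not tested.

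Library totals ran from 13459219 to 25441812 counts. IMR-32 replicate 5 stood apart from its group. In its control library 7.81% of well expressed genes, and in its 24 h library 6.50%, lay more than 2-fold from the median of the other libraries of the group. In each of the other 18 libraries that share was 0.786% or less. The 24 h library of IMR-32 replicate 2 also lay off: the chi-square per degree of freedom between its counts and those of replicates 1, 3 and 4 was 40.4 to 44.7, against 3.93 to 9.51 among these others. Without replicate 2 of IMR-32 the differences called below were 328 higher and 207 lower in SK-N-BE(2)C, in place of 516 and 164. All results are therefore given with replicate 5 and, where it matters, without it. In SK-N-BE(2)C, replicates 3, 4 and 5 lay much closer to each other than to replicates 1 and 2, and several genes below split along that line.

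CDK4 and CDK6, bound to D-type cyclins, phosphorylate the retinoblastoma protein RB1. Unphosphorylated RB1 holds back the E2F transcription factors, which drive genes for the entry into S phase: cyclin E, the helicase loaders and the replicative enzymes. A later wave of genes, for the mitotic spindle and cytokinesis, is controlled through the DREAM and MuvB complexes, which bind a short element called CHR (cell cycle genes homology region) often accompanied by CCAAT boxes. PB keeps RB1 unphosphorylated, so both waves are known to fall in sensitive cells.

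The promoters of 3 genes described below are shown because they carry E2F sites or CCAAT boxes and because the genes stand at opposite ends of the comparison. UHRF1 and E2F2 fell further in IMR-32, and KIF20A fell further in SK-N-BE(2)C. Each is the 150 bases before the RefSeq transcription start, 5′ to 3′ on the coding strand (RefSeq, build GRCh38.p14). Capitals mark an E2F site or a CCAAT box in either orientation. The regions are chr19:4909351-4909500 (plus strand) for UHRF1, chr1:23531234-23531383 (minus strand) for E2F2 and chr5:138178962-138179111 (plus strand) for KIF20A.
UHRF1: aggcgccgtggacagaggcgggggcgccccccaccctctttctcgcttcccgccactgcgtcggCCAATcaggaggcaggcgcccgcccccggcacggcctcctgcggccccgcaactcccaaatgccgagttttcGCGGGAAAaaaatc
E2F2: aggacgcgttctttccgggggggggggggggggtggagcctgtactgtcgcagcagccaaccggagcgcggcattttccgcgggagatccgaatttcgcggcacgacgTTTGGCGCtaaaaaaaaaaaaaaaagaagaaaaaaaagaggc
KIF20A: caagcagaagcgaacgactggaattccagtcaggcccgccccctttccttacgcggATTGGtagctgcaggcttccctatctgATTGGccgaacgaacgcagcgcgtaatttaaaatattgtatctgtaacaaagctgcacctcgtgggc
The E2F letters begin at base -14 of UHRF1 and at base -42 of E2F2, counted back from the start site. KIF20A has 2 reversed CCAAT boxes, at bases -94 and -67. The CHR letters counted below were found in none of these 3 promoters, and CCAAT boxes stood in 36.1% of all promoters searched.

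Of 15153 genes tested, 680 (4.49%) responded differently in the lines at 24 h, by an adjusted p under 0.05 and a difference over 0.5 on the log2 scale. In 516 of them (3.41% of those tested) the response was higher in SK-N-BE(2)C, meaning a larger rise or a smaller fall, and in 164 (1.08%) it was lower. The median difference over all genes was 0.05 on the log2 scale, and over the 680 genes the median size was 0.90. In bulk RNA, fewer cells in a state and less RNA per cell in that state cannot be told apart. Without IMR-32 replicate 5 the count rose to 1190 of 15244 (7.81%), of which 892 were higher and 298 lower. Of the 680 genes, 652 were called again and 28 were not, and 0 changed sign. Without SK-N-BE(2)C replicate 5 the count was 439, and with the close replicates 3 to 5 of that line counted as 1 culture it was 254. The share of the calls that were higher in SK-N-BE(2)C was 75.9% here and 75.8% when scaled by library size alone, but 68.0% with DESeq2's size factors as scaling. It was 62.4% when all 30 libraries of both lines were fitted, 61.8% with all 45, 63.1% with no filter on low counts and 61.3% without IMR-32 replicate 2.

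Each line by itself responded broadly. In SK-N-BE(2)C, 1586 genes rose (10.5%) and 1336 fell (8.82%), and in IMR-32, 1023 rose (6.75%) and 1690 fell (11.2%). The 680 genes fell into classes by what each line did. A group of 164 fell in both lines, 139 of them further in IMR-32 and 25 further in SK-N-BE(2)C, with median log2 fold changes over the group of -1.42 in SK-N-BE(2)C cells and -2.34 in IMR-32. A further 165 fell in IMR-32 alone and 71 in SK-N-BE(2)C alone. Genes that rose in SK-N-BE(2)C alone numbered 116, and 34 rose in IMR-32 alone. All 17 that rose in both rose more in SK-N-BE(2)C. Opposite changes were rare: 23 genes rose in SK-N-BE(2)C cells and fell in IMR-32, and 5 did the reverse. Of these, 6 of the 23 and 0 of the 5 reached 5 CPM in both lines, and SLC35D2, NIPAL3 and CACNA2D3 among the 23 had 2, 1 and 0 reads in treated IMR-32. The remaining 85 passed the test of the difference without passing it in either line. A level of at least 5 CPM in both lines was reached by 514 of the 680.

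**Figure D1:**
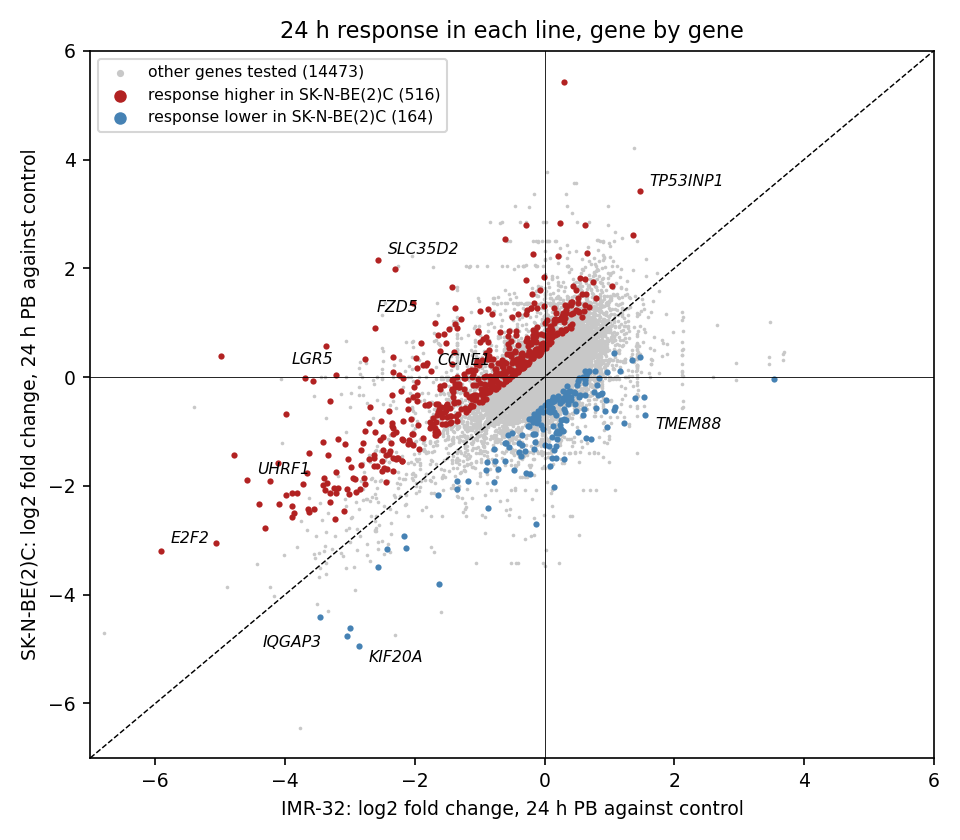
Each point is a gene, placed by its log2 fold change after 24 h of PB in IMR-32 (horizontal) and SK-N-BE(2)C (vertical). The dashed line marks equal responses. The 516 red genes lie above it and the 164 blue genes below, and the red genes at the lower left fell in both lines but further in IMR-32.

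Of 26 members of the axis from D-type cyclins to E2F, 5 were called for the difference (19.2%), all with the response higher in SK-N-BE(2)C (background 3.41%), and the median difference was 0.10, against 0.05 over all genes. With IMR-32 replicate 5 left out, 6 were called higher and 2 lower (backgrounds 5.85% and 1.95%). CCND1, which encodes cyclin D1, rose in both lines (log2 fold changes 0.75 ± 0.09 SE and 0.71 ± 0.09; difference 0.04 ± 0.13, adjusted p = 0.93). CCND3 fell in both (-0.90 ± 0.09 and -0.99 ± 0.09), as did RB1 itself (-0.59 ± 0.09 and -0.72 ± 0.09), and their differences did not pass (adjusted p = 0.76 and 0.65). The drug's targets CDK4 and CDK6 passed in neither line and had differences of 0.06 ± 0.14 and 0.08 ± 0.22. Cyclin D2 (CCND2) and MYC were too low to test.

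The called members of the axis were E2F2, CCNE2, CCNE1, E2F5 and E2F6. E2F2, an activator E2F, stood in SK-N-BE(2)C at 60.3, 65.7, 53.1, 59.4 and 56.6 CPM in control replicates 1 to 5, and at 10.8, 9.90, 2.90, 3.68 and 4.12 CPM after PB. In IMR-32 it went from 48.9, 51.4, 52.1, 48.9 and 48.8 CPM to 0.636, 0.551, 1.44, 0.597 and 0.877 CPM. The controls of the lines lay close together, the treated libraries of the lines did not overlap, and replicates 1 and 2 of SK-N-BE(2)C kept more than the other three. The fall was -3.19 ± 0.28 in SK-N-BE(2)C cells and -5.91 ± 0.35 in IMR-32, a difference of 2.72 ± 0.44 (adjusted p = 0.00079).

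CCNE1, which encodes cyclin E1, the partner of CDK2 at the entry into S phase, fell in IMR-32 and did not pass in SK-N-BE(2)C, where the replicates went different ways. It measured 13.4, 13.9, 12.4, 13.7 and 12.5 CPM in SK-N-BE(2)C controls and 15.8, 14.5, 10.6, 8.87 and 9.60 CPM after PB. In IMR-32 it measured 10.6, 10.2, 10.1, 10.2 and 14.9 CPM, then 3.37, 4.76, 4.51, 3.31 and 5.89 CPM. Treated replicates 1 and 2 of SK-N-BE(2)C lay above every control of that line and replicates 3 to 5 below every control, while every treated IMR-32 library lay below every control. The log2 fold changes were -0.13 ± 0.18 and -1.35 ± 0.19 (difference 1.21 ± 0.26, adjusted p = 0.0066). CCNE2, for cyclin E2, fell in both lines (-3.05 ± 0.35 and -5.06 ± 0.42), and its difference of 2.00 ± 0.54 (adjusted p = 0.031) lost its call in 17 of 39 other settings. E2F5, a repressor E2F, rose in SK-N-BE(2)C (0.59 ± 0.10) and had 0.02 ± 0.10 in IMR-32, whereas E2F6, another repressor, fell in IMR-32 (-0.59 ± 0.08) and had -0.06 ± 0.08 in SK-N-BE(2)C. The call of E2F6 was lost in 12 of 39 settings, DESeq2 among them, and that of E2F5 in 3. E2F1 fell in both (-1.57 ± 0.17 and -2.10 ± 0.17). Its difference of 0.53 ± 0.24 did not pass (adjusted p = 0.22), but without IMR-32 replicate 5 it was 0.74 and passed (adjusted p = 0.014).

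Of 58 genes of DNA replication tested, 55 fell in SK-N-BE(2)C cells (background 8.82%) and 57 in IMR-32 (background 11.2%), with median log2 fold changes of -1.59 and -2.31. For the difference, 19 were called, all with the smaller fall in SK-N-BE(2)C (32.8%, background 3.41%), and the others did not pass. Among all 866 genes called as falling in both lines, 139 were called in this direction. A positive difference was found in 51 of the 58. By edgeR 0 were called the other way, with 2 at an unadjusted p under 0.05, against 2 called by DESeq2 and 1 by limma voom. Over all genes these tools called 267 and 151 that way. The median difference was 0.69, against 0.05 over all genes. Without IMR-32 replicate 5, 26 were called with the smaller fall in SK-N-BE(2)C cells and 2 with the larger (backgrounds 5.85% and 1.95%).

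The 19 covered several steps of replication. Origin recognition and licensing was represented by ORC6 (1.28) and CDC6 (2.52), and the MCM helicase family by MCM3 (1.28), MCM4 (1.84), MCM6 (0.85) and MCM8 (0.94). Helicase activation was represented by CDC45 (1.36), GINS4 (0.86) and MCM10 (1.81), and the polymerases by POLA2 (0.76) and POLE2 (0.99). The remaining 8 were RPA2, EXO1, CHAF1A, DSCC1, HELLS, ATAD2, UHRF1 and CDC25A, with differences from 0.70 to 2.69.

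UHRF1, which brings the maintenance DNA methyltransferase to newly replicated DNA, had the largest difference of this list with all libraries. Without IMR-32 replicate 5, CDC6 had a larger one. The promoter of UHRF1 is the first of those shown above. In SK-N-BE(2)C it measured 237, 239, 241, 245 and 229 CPM in controls and 80.6, 81.0, 49.8, 52.3 and 54.3 CPM after PB. In IMR-32 it measured 191, 200.1, 219, 185 and 318 CPM in controls and 8.46, 6.21, 8.03, 7.54 and 16.3 CPM after PB. Replicate 5 of IMR-32 was the highest in both of its groups, yet its treated value stayed below every treated SK-N-BE(2)C library. The gene fell by 1.89 ± 0.21 on the log2 scale in SK-N-BE(2)C cells and by 4.58 ± 0.24 in IMR-32, a difference of 2.69 ± 0.30 (adjusted p = 1.65e-05) and of 2.81 without replicate 5.

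CDC6, which loads the MCM helicase onto origins, split the replicates of both lines. It went from 155, 176, 159, 169 and 163 CPM to 70.5, 78.0, 39.9, 39.7 and 43.0 CPM in SK-N-BE(2)C cultures. The IMR-32 cultures went from 69.0, 72.9, 82.7, 62.4 and 155 CPM to 2.44, 3.31, 2.93, 2.61 and 14.97 CPM. Replicate 5 of IMR-32 held about the level of SK-N-BE(2)C before treatment and several times the level of its own group after. The difference was 2.52 ± 0.55 (adjusted p = 0.0084), and without replicate 5 it was 3.07 (adjusted p = 2.4e-06). EXO1, an exonuclease of mismatch repair and end resection, had 49.2, 47.6, 44.4, 41.5 and 38.2 CPM after PB in SK-N-BE(2)C, against 6.06, 6.61, 7.04, 5.37 and 15.1 CPM in IMR-32. Its controls had means of 117 ± 4.62 and 99.6 ± 29.8 CPM (SD, n = 5), and the difference was 2.24 ± 0.30 (adjusted p = 0.00016). EXO1, UHRF1, MCM4 and E2F2 kept their calls in all 39 other settings.

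Genes of mitosis fell in both lines without exception in the list, but the difference between the lines went both ways. All 59 tested fell in both lines (backgrounds 8.82% and 11.2%), with medians of -2.42 in SK-N-BE(2)C cells and -2.62 in IMR-32. For the difference, 17 were called with the smaller fall in SK-N-BE(2)C (background 3.41%) and 4 with the larger (background 1.08%), and the median difference was 0.22. Among all 866 genes called as falling in both lines, 139 and 25 were called in these directions. Without IMR-32 replicate 5 the list had 16 and 8 called (backgrounds 5.85% and 1.95%) and a median of 0.13. DESeq2 called 18 and 9 of the list (594 and 267 over all genes), and limma voom 14 and 5 (502 and 151). The 17 included MELK (1.31 ± 0.25), a kinase of proliferating cells, ARHGAP11A (1.15 ± 0.13), a regulator of cytokinesis, the kinetochore gene SPC24 (1.12 ± 0.19) and ANLN (1.10 ± 0.18), a scaffold of the contractile ring. The checkpoint genes TTK, BUB1B and MAD2L1 were among them, with differences of 0.96, 0.80 and 0.83.

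The 4 mitotic genes called by edgeR for a larger fall in SK-N-BE(2)C were KIF20A, AURKB, BIRC5 and NEK2. KIF20A, a kinesin of the central spindle, measured 157, 156, 147, 150.01 and 146 CPM in SK-N-BE(2)C controls and 7.29, 5.90, 3.56, 3.90 and 3.49 CPM after PB. In IMR-32 it went from 155, 162, 159.8, 155 and 202 CPM to 25.5, 20.2, 24.2, 24.97 and 18.5 CPM. The untreated levels were alike apart from IMR-32 replicate 5, and no treated library of one line reached the range of the other. The falls were -4.94 ± 0.17 and -2.87 ± 0.15, a difference of -2.07 ± 0.22 (adjusted p = 8.12e-06).

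AURKB, BIRC5 and NEK2 had differences of -0.97 ± 0.26, -0.93 ± 0.25 and -0.74 ± 0.22. AURKB and BIRC5 encode the kinase and the survivin subunit of the chromosomal passenger complex, and NEK2 a centrosomal kinase. IQGAP3, a scaffold protein of proliferating cells outside the list, fell in the same manner. It had 73.7, 65.0, 77.9, 78.5 and 76.5 CPM before and 3.30, 3.11, 2.53, 2.12 and 2.43 CPM after PB in SK-N-BE(2)C cultures. In IMR-32 it had 87.4, 97.3, 97.3, 90.5 and 95.4 CPM before and 13.4, 7.81, 12.0, 12.9 and 9.96 CPM after. Its difference was -1.71 ± 0.17 (adjusted p = 4.95e-06). MKI67, the proliferation antigen Ki67, had log2 fold changes of -4.30 ± 0.30 and -3.33 ± 0.29, and its difference of -0.97 ± 0.38 did not pass (adjusted p = 0.14; 0.076 without IMR-32 replicate 5).

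Promoter letters were counted in the 300 bases around the RefSeq start (250 before, 50 after), which were at hand for 11365 of the 15153 genes. The E2F letters were TTTGGCGC or TTTCCCGC, the CHR letters TTTGAA or TTCGAA, and the CCAAT box CCAAT, each on both strands. These motifs can overlap other sites and a match says only that the letters are there. The E2F letters stood in 3.63% of all these promoters, in 20.2% of 104 genes that fell in both lines but further in IMR-32, and in 11% of 553 genes that fell in both without a called difference. Among called genes that fell in IMR-32 alone they stood in 2.88% of 139. Of 19 genes that fell further in SK-N-BE(2)C, 1 held them (5.26%). The CHR letters stood in 11.1% of all promoters, and in 30.8%, 22.4%, 12.9% and 26.3% of these classes. In the lists themselves, E2F letters stood in 41.7% of 48 replication promoters and 6% of 50 mitosis promoters, and CHR letters in 4.17% and 70.0%. CCAAT boxes were common everywhere, in 36.1% of all promoters, 62.5% of replication promoters and 72.0% of mitosis promoters.

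Among 39 genes of the damage response and growth arrest, 5 were called with the response higher in SK-N-BE(2)C cells (background 3.41%) and 1 with it lower (background 1.08%), and the median difference was 0.04, against 0.05 over all genes. The counts were 7 and 2 without IMR-32 replicate 5 (backgrounds 5.85% and 1.95%). TP53INP1, a stress protein of autophagy and cell death, rose in both lines from very unequal levels. It went from 1.78, 1.93, 3.59, 3.42 and 3.62 CPM to 25.4, 24.96, 34.0, 34.4 and 31.4 CPM in SK-N-BE(2)C cells, and from 40.0, 46.7, 39.2, 44.8 and 25.9 CPM to 113, 105, 105, 102 and 114 CPM in IMR-32. The treated SK-N-BE(2)C libraries approached the untreated level of IMR-32. The rises were 3.41 ± 0.19 and 1.47 ± 0.16 on the log2 scale, a difference of 1.95 ± 0.24 (adjusted p = 4.04e-05). BTG2, an antiproliferative gene, rose in both lines (1.53 ± 0.15 and 0.63 ± 0.14). SESN1 and SESN2, the sestrins that restrain mTORC1, rose in SK-N-BE(2)C (0.62 ± 0.11 and 0.85 ± 0.18) and had -0.20 ± 0.11 and -0.14 ± 0.19 in IMR-32. The call of SESN2 was lost in 16 of 39 settings. GADD45A, a growth arrest gene, fell in SK-N-BE(2)C (-0.88 ± 0.16) and had 0.24 ± 0.14 in IMR-32.

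CDKN1A encodes p21, an inhibitor of cyclin-dependent kinases. It fell in SK-N-BE(2)C, from 13.1, 12.8, 6.94, 5.87 and 6.76 CPM to 3.996, 4.60, 2.59, 1.39 and 1.75 CPM. In IMR-32 it had 12.3, 10.2, 14.2, 11.4 and 29.4 CPM in controls and 9.58, 10.1, 10.7, 9.88 and 16.3 CPM after PB. Replicates 1 and 2 of SK-N-BE(2)C and replicate 5 of IMR-32 were the high libraries in both states. The log2 fold changes were -1.64 ± 0.36 and -0.45 ± 0.33. Treated and control libraries did not overlap in SK-N-BE(2)C and overlapped in IMR-32. The difference was -1.19 ± 0.48, and whether it passed depended on how the replicates were treated: it did not with all libraries (adjusted p = 0.165), and was -1.40 and passed without IMR-32 replicate 5 (adjusted p = 0.027). It also passed with the replicate number as a block. MDM2, a ubiquitin ligase gene, had a difference of 0.01 ± 0.14, passed in neither line and changed sign with the setting.

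Of 28 genes of quiescence and FOXO activity, 16 rose and 1 fell in SK-N-BE(2)C cells (backgrounds 10.5% and 8.82%) and 15 rose in IMR-32 (background 6.75%), with medians of 0.66 and 0.56. The 4 called for the difference (14.3%, background 3.41%) were all higher in SK-N-BE(2)C. Leaving out IMR-32 replicate 5 gave 6 higher and 1 lower (backgrounds 5.85% and 1.95%). DYRK1B, a kinase that holds cells in G0, went from 12.3, 8.78, 13.4, 12.0 and 13.0 CPM to 69.8, 68.1, 76.4, 74.4 and 72.4 CPM in SK-N-BE(2)C cultures. IMR-32 libraries went from 28.8, 33.3, 27.0, 34.6 and 9.71 CPM to 76.3, 74.1, 65.3, 69.0 and 55.8 CPM. The treated groups overlapped, and the difference of 1.25 ± 0.30 (adjusted p = 0.015) came with lower controls in SK-N-BE(2)C. CCNG2, an atypical cyclin of arrested cells, rose by 1.53 ± 0.12 and 0.58 ± 0.11, and YPEL2 rose by 1.09 ± 0.12 in SK-N-BE(2)C cells and had 0.26 ± 0.11 in IMR-32. In the BCL2 family, 1 of 16 was called (6.25%, background 3.41%), against 2 by DESeq2 (594 over all genes) and 3 without IMR-32 replicate 5 (background 5.85%). The gene called by edgeR, PMAIP1, the BH3-only protein NOXA, fell in IMR-32 (-1.24 ± 0.11) and had -0.22 ± 0.11 in SK-N-BE(2)C (difference 1.02 ± 0.15, adjusted p = 0.00031).

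The 22 adrenergic transcription factors had a median difference of -0.26, and 6 of them had a positive value. In SK-N-BE(2)C, 3 were called lower (background 1.08%) and 1 higher (background 3.41%), and of the 3 SOX11 kept its call in every setting. The fit without IMR-32 replicate 5 called 3 lower and 2 higher (backgrounds 1.95% and 5.85%). SOX11, a factor of the sympathetic lineage, went from 71.8, 71.9, 63.9, 64.0 and 62.2 CPM to 51.7, 52.7, 52.96, 54.9 and 52.6 CPM in SK-N-BE(2)C cultures. In IMR-32 it went from 367, 355, 370.3, 363 and 316 CPM to 439.5, 441, 474, 450.2 and 403 CPM. The groups did not overlap within either line, and the directions were opposite. The log2 fold changes were -0.33 ± 0.06 and 0.33 ± 0.06, both under the limit of 0.5, and the difference was -0.66 ± 0.09 (adjusted p = 8.97e-05). INSM2 rose in IMR-32 (1.53 ± 0.43) and had -0.37 ± 0.33 in SK-N-BE(2)C, a call lost in 30 of 39 settings. TWIST1 had -0.42 ± 0.11 in SK-N-BE(2)C cells and 0.11 ± 0.11 in IMR-32, a call lost in 22 of 39 settings. SATB1 rose in SK-N-BE(2)C (0.82 ± 0.09) and had 0.11 ± 0.08 in IMR-32. MEIS1, amplified in IMR-32, had a difference of -0.48 ± 0.13, within the limit of 0.5 (adjusted p = 0.029). GATA3 and HAND2 each had a difference of -0.26 and did not pass, and MYCN had -0.19 ± 0.13 (adjusted p = 0.46).

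Among genes of the differentiated neuron, 5 of 48 ion channels (10.4%), 3 of 22 catecholamine and granin genes (13.6%) and 1 of 44 synapse genes (2.27%) were called, all higher in SK-N-BE(2)C by edgeR (background 3.41%). By DESeq2, 6 ion channels, 3 catecholamine and granin genes and 0 synapse genes were called higher, and by limma voom 4, 1 and 0. DESeq2 called 1 catecholamine gene and 2 synapse genes lower, and limma voom 1 synapse gene lower. Over all genes, DESeq2 called 594 higher and 267 lower, and limma voom 502 and 151, against 516 and 164 by edgeR. The synapse gene called by edgeR, RIMS2, lost its call in 26 of 39 settings. The ion channels included CACNA1H, lost in 25, and CACNA2D3, which entered the test through SK-N-BE(2)C alone, went from 6 reads to 0 in IMR-32 and was lost in 15. Of 54 axon and cytoskeleton genes, 4 were called higher and 1 lower (9.26% together, background 4.49%), with the call of UNC5A lost in 30 settings. Median differences were 0.19, 0.08, 0.26 and 0.11 in that order. Without IMR-32 replicate 5 they were 0.19, 0.25, 0.33 and 0.11. That fit called 9 ion channels, 3 catecholamine and granin genes, 4 synapse genes and 5 axon genes higher, and 0, 0, 2 and 3 lower (backgrounds 5.85% and 1.95%). CACNA1B, the pore of N-type calcium channels, rose by 1.68 ± 0.19 in SK-N-BE(2)C cells and had 0.44 ± 0.17 in IMR-32. PAK3, a kinase of dendritic spines, rose by 2.22 ± 0.26 in SK-N-BE(2)C, from 1.19 to 5.64 CPM on average, and had 0.21 ± 0.19 in IMR-32, where its mean was 63.3 CPM in controls. KCND3, a potassium channel gene, fell in IMR-32 (-2.33 ± 0.40) from a mean of 0.605 CPM and had 0.37 ± 0.18 in SK-N-BE(2)C. Like CACNA2D3, it entered the test through SK-N-BE(2)C alone, where its control mean was 16.2 CPM. STMN1, the microtubule destabiliser stathmin, fell by 1.04 ± 0.10 in SK-N-BE(2)C cells and had -0.15 ± 0.09 in IMR-32.

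CHGB encodes chromogranin B of dense-core granules. It rose from 526, 466, 340.3, 348 and 353 CPM to 1290.3, 1271, 848, 885 and 879 CPM in SK-N-BE(2)C cultures. Levels in IMR-32 went from 134, 122, 129, 137 and 73.0 CPM to 182, 167, 167, 181 and 143 CPM. Every treated library lay above every control in both lines. The rises were 1.36 ± 0.17 and 0.51 ± 0.17, and the difference of 0.85 ± 0.24 (adjusted p = 0.043) lost its call in 27 of 39 settings. SLC18A2, the vesicular monoamine transporter, rose in SK-N-BE(2)C (0.84 ± 0.22) and had -0.55 ± 0.26 in IMR-32.

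Among metabolic genes, 4 of 29 in amino acid stress and serine synthesis were called (13.8%, background 3.41%), with a median difference of 0.22. The serine synthesis genes PHGDH and PSAT1 and the arginine transporter SLC7A1 fell in IMR-32 (-1.64 ± 0.12, -0.73 ± 0.10 and -1.11 ± 0.11). In SK-N-BE(2)C, PHGDH fell by 1.03 ± 0.12, and PSAT1 and SLC7A1 had -0.10 ± 0.09 and -0.36 ± 0.10. The call of PHGDH was lost in 24 of 39 settings. Against the same background, cholesterol and fatty acid synthesis had 2 of 33 called (6.06%), among them ELOVL6, hypoxia and glycolysis 1 of 24 (4.17%), VEGFA, and interferon response 2 of 23 (8.70%), among them NLRC5. Immediate early genes had 1 of 34 (2.94%), IER5, which was lower (background 1.08%). Of 39 settings, the call was lost in 27 for ELOVL6, DESeq2 among them, in 17 for IER5, in 6 for VEGFA and in 1 for NLRC5. When IMR-32 replicate 5 was left out, the amino acid list had 6 called higher and the cholesterol list 3, the hypoxia list 1 higher and 1 lower, the interferon list 2 higher and the immediate early list 2 higher and 2 lower. In that fit the backgrounds were 5.85% higher and 1.95% lower. The 37 ribosome biogenesis genes, the 75 cytosolic ribosome genes, 13 retinoid response genes and 20 ID, BMP and Notch genes had 0 called by edgeR, DESeq2 or limma voom with all libraries, as had 15 mesenchymal and 3 Schwann cell markers. Without IMR-32 replicate 5, edgeR called 1 retinoid gene higher, 1 ID, BMP and Notch gene higher and 1 lower, and 1 mesenchymal marker higher. At an unadjusted p under 0.05 by edgeR, 4, 3, 2, 3, 0 and 0 of these lists' genes passed, in that order. The cytosolic ribosome genes had 4 of 75 members above 0 and a median difference of -0.16, against 0.05 over all genes, and 22 of them rose in IMR-32 (background 6.75%) against 3 in SK-N-BE(2)C (background 10.5%).

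**Figure D2:**
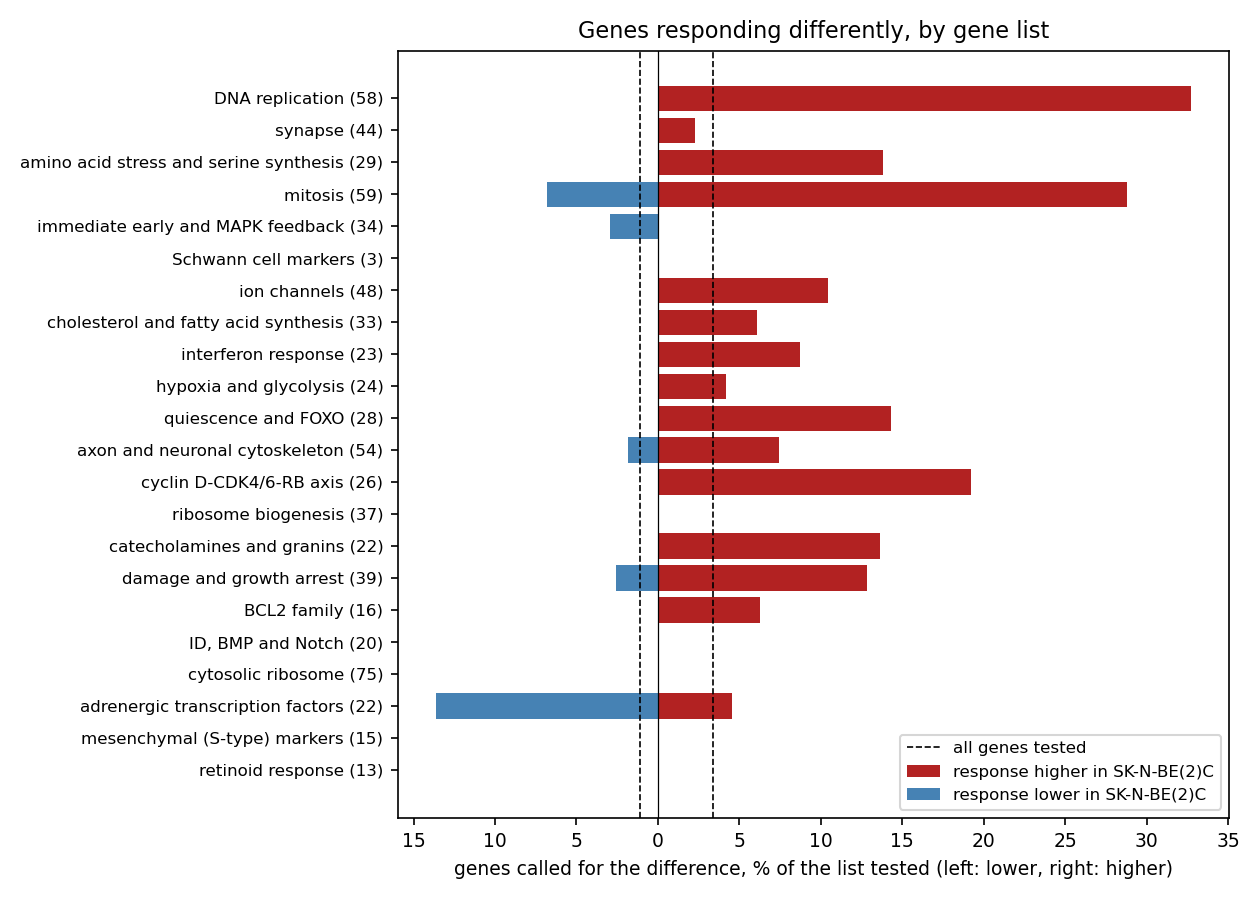
Share of each gene list called for the difference between the lines, in percent of the members tested (number in parentheses), to the right where the response was higher in SK-N-BE(2)C cells and to the left where it was lower. Dashed lines mark the shares over all genes, 3.41% and 1.08%. The replication and mitosis lists extend furthest to the right, with 19 of 58 and 17 of 59, and the adrenergic transcription factors furthest to the left, with 3 of 22.

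Several of the largest differences of single genes came with losses in IMR-32. LGR5, the R-spondin receptor of Wnt signalling, measured 125, 124, 137, 133 and 141 CPM in SK-N-BE(2)C controls and 129.8, 118, 135, 136 and 132 CPM after PB. In IMR-32 it fell from 7.69, 8.82, 9.20, 7.73 and 8.27 CPM to 0.684, 0.651, 0.297, 0.923 and 0.626 CPM. All libraries of SK-N-BE(2)C stayed in one range, and every treated IMR-32 library lay far below its controls. The fold changes were -0.01 ± 0.08 and -3.69 ± 0.13 on the log2 scale (difference 3.68 ± 0.16, adjusted p = 1.52e-11, the smallest of all genes). PTGER2, a prostaglandin E2 receptor, fell by 3.22 ± 0.24 in IMR-32 from a mean of 2.13 CPM and had 0.03 ± 0.10 in SK-N-BE(2)C. MRAP2, a melanocortin receptor accessory protein, fell by 2.77 ± 0.26 in IMR-32 from a mean of 1.12 CPM. Every treated library of MRAP2 lay above every control in SK-N-BE(2)C, and the change of 0.33 ± 0.11 was under the limit of 0.5 (adjusted p = 0.029). KITLG, the ligand of the receptor KIT, fell by 3.99 ± 0.40 in IMR-32. It was near the floor in SK-N-BE(2)C, at a mean of 0.376 CPM in controls and 0.231 CPM after PB (-0.67 ± 0.51).

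Several of the largest values rested on few reads. FAM110B had 0 reads in SK-N-BE(2)C controls and 27 over the 5 treated libraries, which is at least 8.60-fold higher against a floor of 3 counts over the group. Its IMR-32 means were 7.48 and 9.18 CPM. In IMR-32, SLC35D2 went from 16 reads to 2, a ratio of 0.135 (95% exact interval 0.0150 to 0.573), and NIPAL3 from 10 to 1, a ratio of 0.108 (0.00248 to 0.757). CACNA2D3 went from 6 to 0, at least 1.86-fold lower. The calls of CACNA2D3, FEZ1 and NIPAL3 were lost in 15, 18 and 26 of 39 settings. FEZ1 in SK-N-BE(2)C went from 1 read to 11, a ratio of 10.5 (1.53 to 453). These intervals cover counting error only, and in each case the other line held the gene at a higher level, through which it entered the test. PGAM2 and RAI14 were likewise near the floor in one line, at 0.113 CPM in IMR-32 controls and 0.135 CPM in treated SK-N-BE(2)C.

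Among genes that moved in opposite directions with values in both lines, FZD5 and SDC3 rose in SK-N-BE(2)C cells and fell in IMR-32. FZD5, a Frizzled receptor for Wnt ligands, went from 29.6, 21.8, 23.4, 25.3 and 23.5 CPM to 52.4, 45.04, 49.5, 50.02 and 48.2 CPM in SK-N-BE(2)C cultures. In IMR-32 it went from 5.97, 5.76, 5.72, 4.60 and 3.91 CPM to 2.40, 1.35, 1.54, 1.63 and 1.002 CPM. The treated and control libraries did not overlap in either line. The log2 fold changes were 0.996 ± 0.13 and -1.69 ± 0.16 (difference 2.68 ± 0.21, adjusted p = 2.91e-07).

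SDC3, the neuronal heparan sulfate proteoglycan syndecan 3, followed. It rose from 23.4, 19.4, 17.4, 20.4 and 17.6 CPM to 33.1, 34.5, 34.4, 36.9 and 35.4 CPM in SK-N-BE(2)C cultures. In IMR-32 it fell from 12.8, 11.8, 9.85, 13.0 and 11.4 CPM to 7.38, 4.86, 4.71, 6.89 and 4.82 CPM. Again the groups did not overlap, and the difference was 1.86 ± 0.17 (adjusted p = 1.23e-06). HS6ST3, which sulfates heparan sulfate chains, rose by 0.88 ± 0.10 in SK-N-BE(2)C cells and fell by 1.47 ± 0.24 in IMR-32 from a mean of 0.892 CPM, and SH2D5 had 0.85 ± 0.13 and -1.02 ± 0.14.

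The reverse direction was seen for TMEM88, which encodes a membrane inhibitor of Wnt signalling. It fell from 5.81, 5.35, 7.98, 8.62 and 7.95 CPM to 4.15, 3.38, 4.83, 4.13 and 5.24 CPM in SK-N-BE(2)C cultures. In IMR-32 it rose from 1.37, 0.852, 1.25, 1.504 and 0.977 CPM to 3.47, 4.21, 3.32, 2.82 and 3.63 CPM. The lines started apart and their treated libraries overlapped. The fold changes were -0.70 ± 0.17 and 1.55 ± 0.19 on the log2 scale (difference -2.26 ± 0.26, adjusted p = 1.68e-05). CNIH2, a partner of AMPA receptors, fell in SK-N-BE(2)C (-2.02 ± 0.22, from a mean of 12.9 to 3.10 CPM) and had 0.15 ± 0.20 in IMR-32. PLCL1 rose in IMR-32 (1.39 ± 0.27), and the matrix protein gene ECM1 fell in SK-N-BE(2)C (-1.11 ± 0.21) and rose in IMR-32 (0.65 ± 0.23). AIFM2, the ferroptosis suppressor FSP1, fell in SK-N-BE(2)C (-0.55 ± 0.14) and rose in IMR-32 (1.09 ± 0.25) from a mean of 0.487 CPM. NHLH1, a neuronal helix-loop-helix factor, rose in IMR-32 (1.23 ± 0.16), but its mean in SK-N-BE(2)C controls was 0.168 CPM and its call was lost in 19 of 39 settings.

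**Figure D3:**
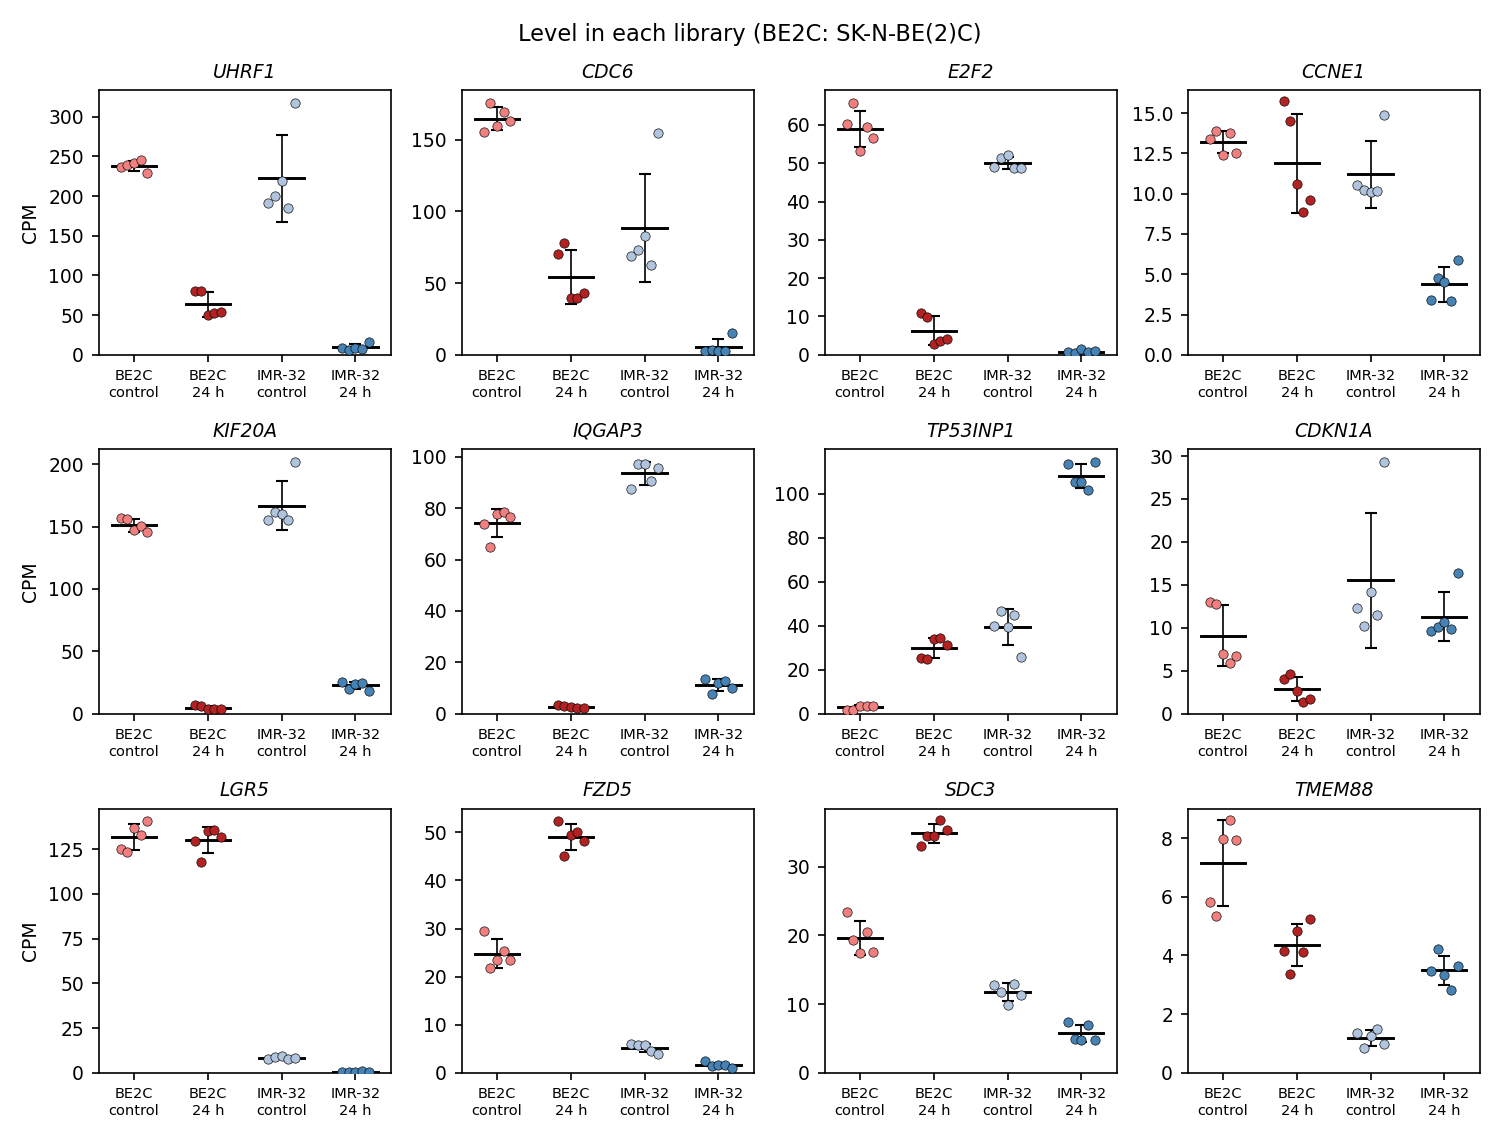
CPM of 12 genes in each of the 5 control and 5 treated libraries of each line, with the mean (bar) and SD (error bar) of each group; axes start at 0. UHRF1, CDC6 and E2F2 fall closer to 0 in IMR-32, KIF20A and IQGAP3 in SK-N-BE(2)C cells, and FZD5, SDC3 and TMEM88 move in opposite directions.

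Of the 69 named genes with a called difference, 35 kept the call in all 39 other settings, among them UHRF1, E2F2, CCNE1, KIF20A, IQGAP3, TP53INP1, LGR5, FZD5, SDC3, TMEM88 and SOX11. CDC6 lost it in 1 setting and DYRK1B in 4, and 18 genes lost it in 10 or more. Among these 18 were VGF, a neuropeptide precursor of the granin list (25 settings), and PGAM2 (13). The libraries were made with a directional kit, but the strand setting of the counts was not given in the sources used here. Of the 69 genes, 28 share exon bases with a gene on the opposite strand, and in 7 (PGAM2, AIFM2, CCNE2, E2F5, ARHGAP11A, SLC18A2 and KCND3) the shared stretch is at least 500 bases.

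SH-SY5Y, which has no MYCN amplification, entered none of these differences. Its mean MYCN was 6.35 CPM in controls. In a fit of all 45 libraries, its 24 h response to PB lay between those of the other lines for 511 of the 680 genes, below both for 77 and above both for 92. These genes were chosen for responses that lie apart in the lines, so a value between them is more likely by construction. For 3583 genes called in either line without a called difference, the response lay between for 1400, below both for 1092 and above both for 1091. Among the 680 it was nearer to SK-N-BE(2)C for 389 (57.2%) and nearer to IMR-32 for 291. Among the 3583 it was nearer to SK-N-BE(2)C for 52.8%. Tested over all genes, its response differed from that of SK-N-BE(2)C in 332 of 16282 (2.04%) and from that of IMR-32 in 500 (3.07%).

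Gene by gene, the response of SH-SY5Y differed from that of one line, of both or of neither. UHRF1 fell by 2.30 ± 0.27 on the log2 scale in SH-SY5Y, which differed from IMR-32 (by 2.26, adjusted p = 0.00025) and not detectably from SK-N-BE(2)C (by -0.36, adjusted p = 0.72). KIF20A fell by 4.88 ± 0.41, which differed from IMR-32 by -2.05 (adjusted p = 0.015) and had a difference of 0.10 from SK-N-BE(2)C (adjusted p = 0.99). LGR5 had 0.12 ± 0.12 and FZD5 rose by 0.64 ± 0.20, both different from IMR-32 (by 3.78 and 2.29, adjusted p = 2.37e-15 and 7.17e-06). TMEM88 and TP53INP1 rose by 1.69 ± 0.22 and 1.27 ± 0.14, both different from SK-N-BE(2)C (by 2.44 and -2.11, adjusted p = 6.16e-07 and 1.89e-08), with differences of 0.11 and -0.23 from IMR-32 (adjusted p = 0.93 and 0.60). RAI14 fell by 1.47 ± 0.12 and differed from both SK-N-BE(2)C (by 1.27, adjusted p = 0.046) and IMR-32 (by -1.38, adjusted p = 1.11e-07). CCNE1 fell by 0.76 ± 0.19 and passed against neither (adjusted p = 0.25 and 0.28).

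The longer treatments lasted 5 days for IMR-32 and 7 days for SK-N-BE(2)C, so levels are set side by side and not compared. The same controls serve both times. UHRF1 averaged 238, 63.6 and 52.7 CPM in control, 24 h and 7 day libraries of SK-N-BE(2)C, and 223, 9.32 and 73.0 CPM in control, 24 h and 5 day libraries of IMR-32. E2F2 averaged 59.0, 6.29 and 6.52 CPM in SK-N-BE(2)C cells and 50.05, 0.820 and 18.9 CPM in IMR-32. KIF20A averaged 151, 4.83 and 15.7 CPM, and 167, 22.7 and 55.2 CPM. In IMR-32 all of these late means lay between the control and the 24 h mean, and in SK-N-BE(2)C that was so for E2F2 and KIF20A. LGR5 averaged 132, 130.1 and 55.1 CPM in SK-N-BE(2)C cells, and 8.34, 0.636 and 2.39 CPM in IMR-32.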

How the data were processed

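Polyadenylated RNA of the 3 lines was sequenced as directional paired-end libraries. Per the labels, the authors trimmed reads with Trim Galore 0.6.4 and aligned them with STAR 2.6.1d to hg19, and DESeq2 1.32.0 was among their tools. The deposited tables hold raw read counts per gene symbol and CPM; the authors' CPM equalled the count divided by the library total, times 1000000. The authors' tables of shrunken fold changes with adjusted p were not used. The strand setting of the counts was not given in the sources used here.

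Counts of the lines were joined by symbol. The 4 groups (control and 24 h PB, 5 libraries each) were fitted together with edgeR 4.0.16 in R 4.3.3 (filterByExpr with a minimum count of 10, TMM scaling, robust quasi-likelihood F test). The contrast was the SK-N-BE(2)C change minus the IMR-32 change. Genes were called at a Benjamini-Hochberg adjusted p under 0.05 over all genes tested and a log2 difference over 0.5. Fold changes are on the log2 scale with their SE. Values of p measure the spread between libraries of a group, taken as independent cultures. Both lines shared the estimate of spread for each gene. SK-N-BE(2)C replicates 3 to 5 lay close together, so their independence is uncertain. Counted as 1 culture, they left 254 calls. Library totals had a median of 19994223 counts, at which 1 CPM is 19.99 reads. The biological coefficient of variation was 21.3% over the IMR-32 libraries (11.3% without replicate 5) and 10.8% over those of SK-N-BE(2)C.

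Genes named were the 10 largest differences in each direction with 5 CPM in a group and called without IMR-32 replicate 5 too, 6 with opposite changes, up to 5 called members of each of 22 gene lists, and a fixed set (cyclins, CDKs, stress and lineage genes). AURKB, BIRC5, NEK2, TTK, BUB1B, MAD2L1 and the remaining replication genes were named after their values were seen. A few named genes and 1 genotype are not reported here. Members and lists were chosen with earlier results of these data known. Alternatives were DESeq2 1.42.0, limma 3.58.1 with voom, other scalings, no filter, more libraries, a replicate block, other limits, and each library or replicate left out. The procedure was tested on simulated counts. Promoters came from RefSeq and overlaps of exons on opposite strands from GENCODE on GRCh37.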

Additional observations from a re-analysis of the deposited data

Results flagged for a closer look

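Of 72 groups of 5 values checked for a library far from the rest, 14 had one, and in all 14 it was IMR-32 replicate 5. Chance alone gives about 5% of such groups. In the IMR-32 controls, replicate 5 held 318 CPM of UHRF1 against 185 to 219 in the others, 155 CPM of CDC6 against 62.4 to 82.7, 151 CPM of EXO1 against 77.7 to 96.2, 14.9 CPM of CCNE1 against 10.1 to 10.6, 202 CPM of KIF20A against 155 to 162, and 29.4 CPM of CDKN1A against 10.2 to 14.2. It held less CHGB (73.0 CPM against 122 to 137) and less SOX11 (316 CPM against 355 to 370.3). At 24 h it held 16.3 CPM of UHRF1 against 6.21 to 8.46, 14.97 CPM of CDC6 against 2.44 to 3.31, 15.1 CPM of EXO1 against 5.37 to 7.04, and 16.3 CPM of CDKN1A against 9.58 to 10.7. The share of genes over 2-fold from the median of the group was 7.81% in its control and 6.50% at 24 h, against at most 0.305% and 0.763% in the other libraries of those groups.

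The 24 h responses of the lines differed, by the test of the difference itself, for 69 of the named genes. The log2 difference was positive, that is, the response higher in SK-N-BE(2)C, for 54. In 5 of these 1 group held 0 to 2 reads in all, so the fitted value depends on the prior count and gives no size or rank: FAM110B (5.12, and 3.13 to 5.26 in the other settings, with a bound of at least 8.60-fold higher in SK-N-BE(2)C), CACNA2D3 (3.95, and 1.81 to 4.28, with a bound of at least 1.86-fold lower in IMR-32), SLC35D2 (4.71, and 4.19 to 5.25), NIPAL3 (3.52, and 2.14 to 5.22) and FEZ1 (3.07, and 2.21 to 4.50). The others were LGR5 (3.68), KITLG (3.31), PTGER2 (3.25), PGAM2 (3.16), MRAP2 (3.10), E2F2 (2.72), KCND3 (2.71), UHRF1 (2.69), FZD5 (2.68), CDC6 (2.52), HS6ST3 (2.35), EXO1 (2.24), PAK3 (2.01), CCNE2 (2.00), TP53INP1 (1.95), SH2D5 (1.87), SDC3 (1.86), MCM4 (1.84), MCM10 (1.81), NLRC5 (1.67), SLC18A2 (1.39), MELK (1.31), DYRK1B (1.25), CACNA1B (1.24), CCNE1 (1.21), ARHGAP11A (1.15), SPC24 (1.12), ANLN (1.10), PMAIP1 (1.02), SESN2 (0.996), VEGFA (0.98), CACNA1H (0.95), CCNG2 (0.95), BTG2 (0.90), CHGB (0.85), YPEL2 (0.83), SESN1 (0.82), EFNB1 (0.77), SLC7A1 (0.76), SATB1 (0.72), VGF (0.64), UNC5A (0.64), PSAT1 (0.63), PHGDH (0.61), NRCAM (0.61), E2F5 (0.57), E2F6 (0.53), ELOVL6 (0.53), RIMS2 (0.52). It was negative for 15: RAI14 (-2.57), TMEM88 (-2.26), CNIH2 (-2.16), NHLH1 (-2.08), KIF20A (-2.07), INSM2 (-1.90), PLCL1 (-1.78), ECM1 (-1.76), IQGAP3 (-1.71), AIFM2 (-1.64), GADD45A (-1.12), STMN1 (-0.89), IER5 (-0.73), SOX11 (-0.66), TWIST1 (-0.53). PGAM2 averaged 0.113 CPM in control and 0.0716 CPM in treated IMR-32. In SK-N-BE(2)C, KITLG averaged 0.376 and 0.231 CPM, and NHLH1 0.168 and 0.0991 CPM. PGAM2, KITLG and NHLH1 passed the filter on low counts through the other line, so their values give no firm size or rank either.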

How the results depend on the processing

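With all libraries there were 680 differences (516 higher and 164 lower in SK-N-BE(2)C). Leaving out a library or a replicate gave 439 to 1190 calls, 328 to 892 higher and 98 to 298 lower. The outer values belong to IMR-32 replicate 5 (1190 without it, 892 and 298), SK-N-BE(2)C replicate 5 (439, 339 and 100), IMR-32 replicate 2 (328 higher) and SK-N-BE(2)C replicate 3 (98 lower). Without IMR-32 replicates 1 or 3, or SK-N-BE(2)C replicate 4, 109, 107 and 102 were lower, and without the 24 h library of IMR-32 replicate 5, 252. Counting SK-N-BE(2)C replicates 3 to 5 as 1 culture gave 254 (211 and 43), with fewer libraries. A replicate block gave 1437 (1045 and 392). Same-numbered libraries correlated at 0.427 to 0.697 in SK-N-BE(2)C cells and at 0.049 to 0.884 in IMR-32, where replicate 2 was lowest, and 5 of 10 did not correlate best with their own number, so the numbers were not taken as pairs. The block kept every named call, and CDKN1A, not called otherwise with all libraries, had -1.29 and passed (adjusted p = 0.000179).

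A limit of 1 on the log2 difference gave 271 (210 and 61), with 1017 genes responding in IMR-32 and 1092 in SK-N-BE(2)C, counts that moved over 1.5 times with the limit alone. No limit gave 277 lower, and 5388 and 5707 responding genes. DESeq2 gave 267 lower, all 45 libraries 279 lower, and no filter on low counts 332 higher; the cause was not tested. Other counts stayed within 1.5 times. Differences near 0 changed sign with 30 libraries, with 45 and with no filter, in that order: CCND1 to -0.032, -0.033 and -0.029, CDK4 to -0.014, -0.016 and -0.012, and MDM2 to -0.062, -0.064 and -0.060. MDM2 was also -0.023 with DESeq2, -0.025 with its scaling and -0.00058 with limma voom. Leave-outs ran from -0.066 to 0.10 for CCND1, -0.032 to 0.14 for CDK4, -0.14 to 0.19 for CDK6 and -0.11 to 0.055 for MDM2. Depth limits genes under about 1 CPM, which is 19.99 reads in a library.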
